A study of Mus musculus with 3 samples.

Results

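The 43 genes described here encode the folding and secretory machinery of the endoplasmic reticulum (ER), and they were followed in single cells of healing mouse skin. They comprised 11 chaperones, 4 disulphide isomerases, the collagen chaperone *Serpinh1*, 8 stress sensors and transcription factors, 12 genes of protein translocation and signal peptide removal, and 7 genes of retrieval and export. The members were taken from a list of gene symbols, and all 43 were found among the 32285 genes of the count tables. The tissue was dorsal skin of adult male C57BL/6J mice carrying full-thickness excisional wounds made with a biopsy punch. It was collected at Day 3, Day 7 and Day 14 after wounding, and each day was 1 library of unsorted cells, prepared from several wounds together. No unwounded skin was analysed here. Each day had a single library, so differences between days lack replicates, no test was made, and the comparisons are between these libraries. The 95% intervals cover counting error only.

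Secreted and membrane proteins enter the ER through the Sec61 channel, lose their signal peptide to the signal peptidase, fold with the help of chaperones and disulphide isomerases, and leave in vesicles with a COPII coat. Wound fibroblasts pass large amounts of procollagen along this route, and procollagen needs its own helpers for proline hydroxylation, triple helix stability and packaging. When unfolded proteins accumulate, 3 sensors in the ER membrane, encoded by *Ern1*, *Eif2ak3* and *Atf6*, raise the transcription of chaperone genes. That programme is known as the unfolded protein response.

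The libraries held 5158, 22924 and 16611 barcodes at Day 3, Day 7 and Day 14, with 38133650, 120940799 and 112713257 unique molecular identifiers (UMIs). After filters and removal of called doublets, 37460 cells were left. They fell into 37 clusters, which were named from marker genes. The fibroblast-like class held 399, 5948 and 7370 cells on the 3 days, and all 8 fibroblast markers were detected in it, led by *Dcn*. The macrophage-like class held 2566, 8741 and 2966 cells. The median fibroblast-like cell had 44779 UMIs at Day 3 against 10295 at Day 7 and 9571.5 at Day 14, so the Day 3 cells stood apart in depth. Different clusters made up the class on each day. At Day 3, 55.6% of fibroblast-like cells came from a cluster led by *Saa3* and *Cxcl5* and 37.6% from a cycling cluster led by *Ube2c* and *Top2a*. At Day 7 the clusters led by *H19*, *C3* and *Tnn* held 24.5%, 24.0% and 23.1%. At Day 14 the cluster led by *Mgp* and *Cilp* held 47.6% and that led by *Igfbp2* 21.3%. Between 19 and 111 cell barcodes were shared by any 2 libraries.

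Fibroblast-like cells devoted a larger share of their UMIs to the 43 genes than any other class of at least 50 cells on each day. The summed members reached 25005 CPM (the UMIs of a gene scaled to the same total in every class and library; 95% interval 24936 to 25075) at Day 3, 14853 (14823 to 14883) at Day 7 and 12561 (12535 to 12587) at Day 14. These sums were 2.50%, 1.49% and 1.26% of all UMIs of the class. Over single fibroblast-like cells, the median share was 2.51%, 1.35% and 1.198%. Over the same days the 44 collagen genes went the other way in these cells, from 6.91% of UMIs to 11.9% and 13.7%. Macrophage-like cells stood at 7591, 6413 and 7525 CPM of summed members and dendritic-like cells at 6974, 5984 and 7511 CPM. Neutrophil-like cells were lowest, with 3779 CPM at Day 3 and 4106 CPM at Day 7. The share taken by the secretory genes in fibroblast-like cells was thus highest at Day 3, when the collagen share was lowest.

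**Figure D1:**
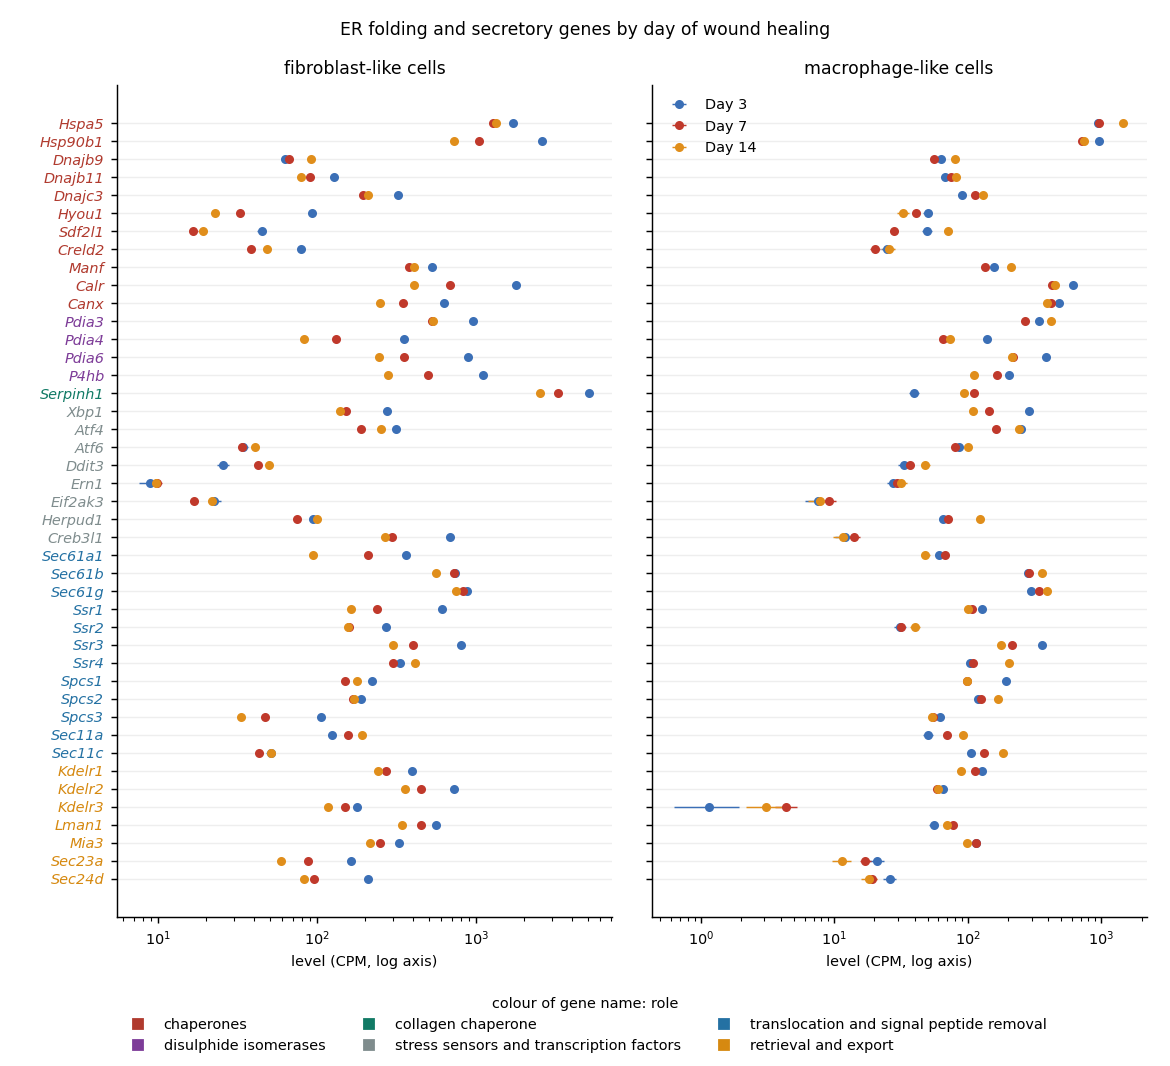
Level of each of the 43 genes in CPM (log axis) in fibroblast-like cells (left) and macrophage-like cells (right), with 1 point per library (blue Day 3, red Day 7, orange Day 14) and bars for the 95% counting interval. In fibroblast-like cells most blue points lie to the right of the red and orange ones, as for *Calr* (1781, 679 and 405 CPM), whereas in macrophage-like cells the 3 days lie closer together for most genes.

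The chaperones and the isomerases had the most negative medians of all roles between Day 3 and Day 7, -0.87 and -1.25 on the log2 scale. *Hspa5* encodes BiP, the Hsp70 of the ER lumen and the central regulator of the stress sensors. Its level in fibroblast-like cells was 1693 CPM at Day 3, 1266 CPM at Day 7 and 1320 CPM at Day 14. The log2 ratio of Day 7 over Day 3 was -0.42, which is less than a 1.5-fold difference. *Hsp90b1*, the ER member of the Hsp90 family, had 2573, 1035 and 725 CPM, and its ratio of Day 7 over Day 3 was -1.31 (-1.33 to -1.30). *Calr* and *Canx*, the lectin chaperones that hold glycoproteins until they are folded, had ratios of -1.39 and -0.87. *Hyou1*, a large Hsp70-like chaperone that recharges BiP, had 92.6, 32.8 and 22.7 CPM. Its log2 ratio of -1.50 (-1.59 to -1.41) was the most negative among the 42 members compared. *Sdf2l1*, which works in a complex with BiP, had 44.7, 16.6 and 19.0 CPM. Of the J-domain partners of BiP, *Dnajc3* stood at 320, 194 and 209 CPM, *Dnajb11* at 128, 89.2 and 79.0 CPM, and *Dnajb9* at 62.4, 66.1 and 91.2 CPM. Only *Dnajc3* among these 3 was past 1.5-fold between Day 7 and Day 3. *Creld2*, a stress-induced ER protein, had 79.2, 38.4 and 48.5 CPM, and *Manf*, a secreted factor of the same programme, had 527, 377 and 404 CPM. *Manf* shares exon sequence on the same strand with *Rbm15b*, so its counts are uncertain.

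Known elements of the unfolded protein response were found in the promoters of 12 of the 33 members with a promoter window. They are shown here because the members that hold them include some with large differences between days. The ER stress response element (ERSE) was searched for as CCAAT and CCACG with 9 bases between them, on both strands, in RefSeq promoter windows of 300 bases (250 before and 50 after the gene start, build GRCm38.p6). It was found in 39 of 32851 windows, or 0.119%, and in 7 of the 33 members with a window. In the sequences below, written 5′ to 3′, capitals mark the match.
*Hspa5*, chr2:34772020-34772048, plus strand: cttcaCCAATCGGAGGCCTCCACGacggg
*Hsp90b1*, chr10:86705528-86705556, plus strand: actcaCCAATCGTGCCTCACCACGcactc
*Hsp90b1*, chr10:86705633-86705661, minus strand: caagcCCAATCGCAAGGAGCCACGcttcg
*Calr*, chr8:84847070-84847098, plus strand: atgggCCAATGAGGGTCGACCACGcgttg
*Canx*, chr11:50325795-50325823, minus strand: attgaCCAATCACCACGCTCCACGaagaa
*Creld2*, chr15:88819515-88819543, minus strand: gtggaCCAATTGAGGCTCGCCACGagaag
*Dnajc3*, chr14:118937822-118937850, plus strand: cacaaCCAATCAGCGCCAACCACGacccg
*Pdia6*, chr12:17266486-17266514, plus strand: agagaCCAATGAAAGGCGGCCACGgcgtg
All of these lie upstream of the gene start. The second element, ERSE-II, was searched for as ATTGG and CCACG with 1 base between them and was found in 12 windows (0.0365%), among them that of *Herpud1* and, after the gene start, that of *Dnajb11*. The third, TGACGTGG, was found in 222 windows (0.676%), among them those of *Kdelr3*, *Sec24d* and, after the gene start, *Sec23a*.
*Herpud1*, chr8:94386368-94386396, plus strand: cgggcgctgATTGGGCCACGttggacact
*Kdelr3*, chr15:79516368-79516396, minus strand: tggccgcgcggTGACGTGGcggggcggcc
*Sec24d*, chr3:123267460-123267488, plus strand: cccgggcgccTGACGTGGcactagcaacc
The 7 members with an ERSE had a median log2 ratio of -1.04 between Day 7 and Day 3 in fibroblast-like cells, and 6 of the 7 were lower by at least 1.5-fold, with *Hspa5* the exception. The 25 compared members whose window held no ERSE had a median of -0.53, and 11 of them were lower, while 24.0% of all genes compared were lower. In macrophage-like cells over the same step, 1 of the 7 with an ERSE was lower (median -0.30) and 6 of 24 without (median -0.17), against 17.5% of all genes. These values are over whole classes. Within the fibroblast-like cluster led by *Saa3*, *Canx* (581.5 to 427 CPM), *Creld2* (70.5 to 51.9 CPM) and *Dnajc3* (293 to 229 CPM) also stayed within 1.5-fold. In that led by *Ube2c* all of the 7 but *Hspa5* were past it. The members without an ERSE were not counted within clusters. The 7 are *Pdia6* and chaperones, from the 2 roles with the most negative medians, so element and role cannot be told apart here. *Hyou1*, with the most negative ratio, had no window, and those of *Sdf2l1* (-1.43) and *Pdia4* (-1.41) held no ERSE. The differences between days also prompted the display, so this comparison is a description and no test. These matches describe the sequence, and binding to them was not measured.

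Between Day 3 and Day 7, more of the 42 members compared were lower than in the background of all genes. A member was compared when its mean level over the 2 libraries was at least 10 CPM with at least 10 UMIs in total, and it was counted when it differed by at least 1.5-fold, by size alone. In fibroblast-like cells 23 members were lower at Day 7 and 1 was higher. Among the 7765 genes compared, 24.0% were lower and 9.66% were higher. The median log2 ratio was -0.71 over the members and -0.21 over all genes. The summed members had a log2 ratio of -0.75 (-0.76 to -0.75). In the 2 clusters with at least 100 cells on both days, led by *Ube2c* and by *Saa3*, the ratio of the summed members was -0.57 and -0.36. In the cluster led by *Ube2c* 18 of 42 members were lower and none was higher, against 16.6% and 10.9% of all genes in that cluster. In the cluster led by *Saa3* 12 of 43 were lower and 2 were higher, against 16.6% and 8.99%. By the ratio averaged over both clusters, 15 of 42 members were lower and none was higher, against 15% and 8.48%, with a mean of -0.46 for the sum. Scaling to UMIs outside the collagen genes and *Gm42418*, a transcript that overlaps ribosomal RNA sequence and took 3.39% of fibroblast-like UMIs at Day 3 and 9.28% at Day 7, raised the median of all genes by 0.19 and gave -0.56 for the summed members. The depth of the cells differed between the same libraries, as given above. Over single fibroblast-like cells, member share and depth had a Spearman correlation of 0.05, 0.33 and 0.34 at Day 3, Day 7 and Day 14. The part of depth in the difference was not tested.

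The disulphide isomerases were lower at Day 7 in all 4 cases. *P4hb*, which is both protein disulphide isomerase and a subunit of the prolyl hydroxylase that modifies collagen, had 1102, 495 and 278 CPM on the 3 days in fibroblast-like cells. *Pdia4* had 349, 131 and 82.4 CPM and *Pdia6* had 887, 349 and 245 CPM. *Pdia3*, the isomerase that partners calreticulin and calnexin, had 954, 523 and 534 CPM. The log2 ratios of Day 7 over Day 3 ran from -1.41 for *Pdia4* to -0.87 for *Pdia3*. *P4hb* and *Pdia4* were lower again at Day 14 over the whole class, although *Pdia4* had a ratio of 0.12 when averaged within clusters. Of the clusters led by *Mgp*, *C3*, *Akr1c18* and *Smpd3*, only that led by *C3* had *P4hb* past 1.5-fold (398 to 255 CPM).

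*Serpinh1* encodes HSP47, which binds the procollagen triple helix in the ER. It stood at 5113 CPM (5082 to 5145) at Day 3, 3256 CPM (3242 to 3270) at Day 7 and 2523 CPM (2511 to 2535) at Day 14 in fibroblast-like cells. Its log2 ratio of Day 7 over Day 3 was -0.65, just past 1.5-fold, and within the 2 shared clusters it was -0.50 and no longer past it. Over the same step *Col1a1*, one of the collagens it serves, went from 22745 to 41435 CPM.

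The stress sensors and transcription factors did not move as 1 group. *Ern1* stood at 8.86, 9.79 and 9.68 CPM in fibroblast-like cells on the 3 days and *Eif2ak3* at 22.5, 16.8 and 21.6 CPM. *Atf6* had 34.1, 33.5 and 40.3 CPM. None of the 3 sensors differed by 1.5-fold, and *Ern1* was under the limit for comparison. *Xbp1*, whose mRNA is spliced by the product of *Ern1*, had 274, 152 and 138 CPM, and *Atf4*, the factor translated after signalling through *Eif2ak3*, had 311, 188 and 253 CPM. Both were lower at Day 7 over the whole class, by -0.85 and -0.73 on the log2 scale. In the cluster led by *Saa3*, *Atf4* stayed within 1.5-fold (308 to 248 CPM), and in that led by *Ube2c* it was past it. *Xbp1* was past it in both clusters. The tables count all *Xbp1* transcripts together, so spliced mRNA was not measured. *Ddit3*, which encodes the stress factor CHOP, was the 1 member that was higher at Day 7, with 25.5, 42.0 and 49.3 CPM and a log2 ratio of 0.72 (0.58 to 0.86). Within the shared clusters its ratio was 0.37, below 1.5-fold. *Herpud1*, a component of ER-associated degradation, had 93.8, 74.5 and 99.2 CPM. *Creb3l1* encodes OASIS, a membrane-bound factor known for activating type I collagen transcription. It had 683 CPM (671 to 694) at Day 3, 293 CPM at Day 7 and 265 CPM at Day 14, and its ratio of Day 7 over Day 3 was -1.22 (-1.25 to -1.19).

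Of the genes of translocation and signal peptide removal, 5 of 12 were lower at Day 7, against 24.0% of all genes, and subunits of the same complex had different ratios. Of the 3 genes of the Sec61 channel, *Sec61a1*, the pore subunit, had 359, 208 and 93.3 CPM and was lower at both steps, whereas *Sec61b* (737, 719 and 560 CPM) and *Sec61g* (877, 823 and 742 CPM) stayed within 1.5-fold. Of the translocon-associated genes, *Ssr1* had 609, 238 and 162 CPM and *Ssr3* 804, 400 and 300 CPM. *Ssr2* had 270, 157 and 155 CPM, and these 3 were lower at Day 7 by -1.36, -1.01 and -0.79 on the log2 scale. *Ssr4* had 330, 299 and 412 CPM and was not. Among the signal peptidase genes *Spcs3* had 105, 46.8 and 33.1 CPM and was lower at Day 7, by -1.17. *Spcs1* (221, 148 and 178 CPM), *Spcs2* (187, 168 and 169 CPM), *Sec11a* and *Sec11c* stayed within 1.5-fold at both steps. *Sec11a*, at 123, 156 and 191 CPM, shares exon sequence with *Nmb* and is uncertain. These values are over the whole class. Between Day 3 and Day 7 within the clusters led by *Ube2c* and by *Saa3*, *Sec61a1* and *Ssr2* stayed within 1.5-fold in both. *Ssr3* and *Spcs3* were past 1.5-fold only in that led by *Ube2c*, and *Ssr1* was past it in both.

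Of the retrieval and export genes, 3 of 7 were lower at Day 7 over the whole class, against 24.0% of all genes. *Kdelr1*, *Kdelr2* and *Kdelr3* encode the receptors that return escaped ER proteins from the Golgi. *Kdelr2* had 720, 446 and 353 CPM and was lower at Day 7 by -0.69. *Kdelr1* had 391, 271 and 240 CPM, and *Kdelr3* had 177, 150 and 116.7 CPM. *Sec23a* (163, 87.8 and 58.8 CPM) and *Sec24d* (209, 95.3 and 82.2 CPM), subunits of the COPII coat, had ratios of -0.89 and -1.14. Within the clusters led by *Ube2c* and by *Saa3*, *Kdelr2* stayed within 1.5-fold (763 to 539 CPM and 678.5 to 543 CPM). *Sec23a* was past 1.5-fold only in that led by *Ube2c*, and *Sec24d* was past it in both. *Lman1*, a cargo receptor for glycoproteins, had 561, 447 and 339 CPM. *Mia3*, which encodes TANGO1 and loads procollagen at ER exit sites, had 325, 247 and 213 CPM.

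**Figure D2:**
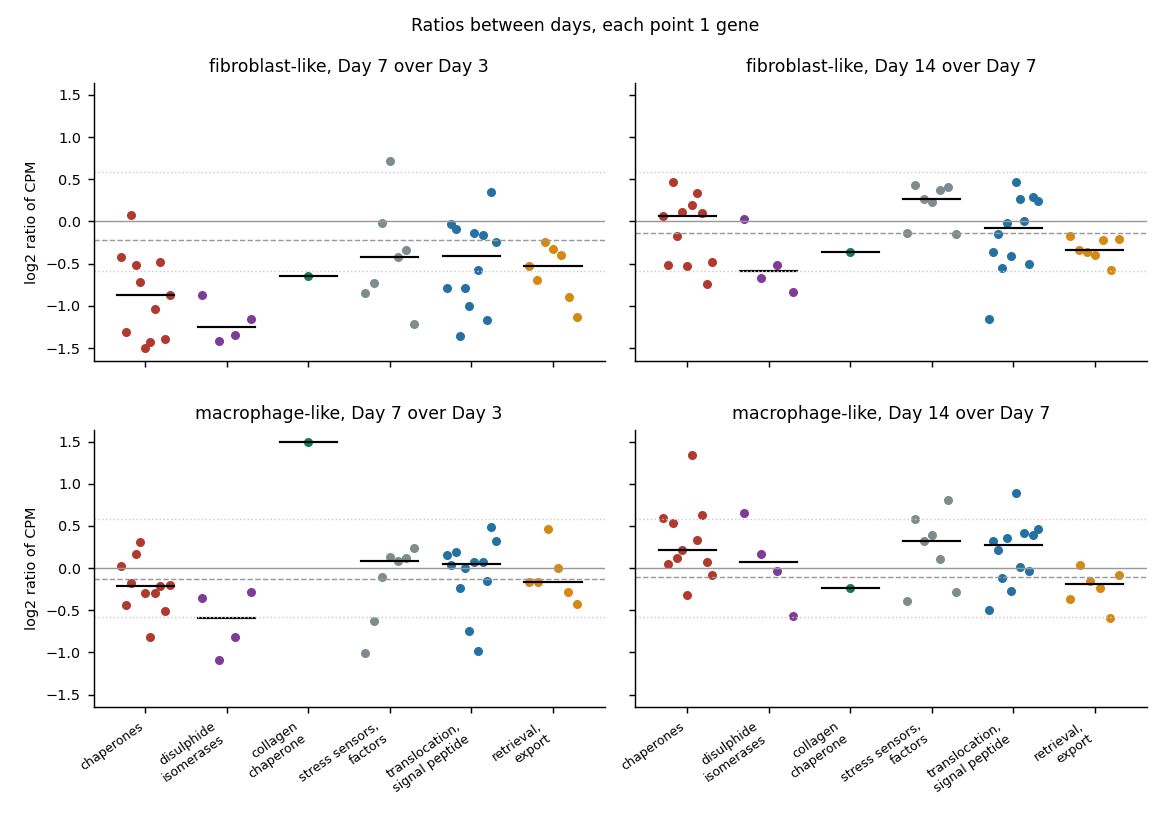
Log2 ratio of CPM between days for each compared member, grouped by role, in fibroblast-like (top) and macrophage-like (bottom) cells. Each point is 1 gene, solid black bars are the median of a role, the dashed grey line is the median of all genes compared and dotted lines mark 1.5-fold. For Day 7 over Day 3 in fibroblast-like cells the medians of chaperones (-0.87) and isomerases (-1.25) lie well below that of all genes (-0.21).

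From Day 7 to Day 14 the fibroblast-like values changed less. Of the 42 members compared, 4 were lower (*Calr*, *P4hb*, *Pdia4* and *Sec61a1*) and none was higher. The background was 12.4% lower and 6.88% higher among 7343 genes, so the members' count was not above it. The summed members had a log2 ratio of -0.24 (-0.25 to -0.24) against a median of -0.13 over all genes. *Sec61a1* had the most negative ratio, -1.16 (-1.20 to -1.11). The direction of the sum depended on the clusters. In the 4 clusters with at least 100 cells on both days, led by *Mgp*, *C3*, *Akr1c18* and *Smpd3*, the ratio of the summed members was 0.10, -0.06, 0.11 and 0.11. The cluster led by *Smpd3* had 10 of 42 members higher and none lower, against 15.3% and 8.57% of all genes in it, and that led by *C3* had 2 higher and 2 lower, against 6.55% and 9.24%. By the ratio averaged over the 4 clusters, the sum was at 0.07 and *Pdia4* at 0.12. By that average 5 of 42 members were higher and 1 was lower, against 5.68% and 4% of all genes.

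Macrophage-like cells, the other large class, had a log2 ratio of -0.24 for the summed members between Day 3 and Day 7, against -0.75 in fibroblast-like cells. *Gm42418* took 3.88%, 16.2% and 9.22% of macrophage-like UMIs on the 3 days. Scaling without it and the collagen genes raised the median of all genes by 0.20 for Day 7 over Day 3. That shift is close in size to the ratio of the summed members, so the ratio is not read as a fall. Within the 5 macrophage-like clusters with at least 100 cells on both days it ran from -0.53 to -0.10, with 5 to 13 members lower in each, against 18.4% to 29.2% of all genes, so its range overlapped the -0.57 and -0.36 of the fibroblast-like clusters. For Day 14 over Day 7 the ratio was 0.23 over the class and -0.02 to 0.23 within 5 clusters, and in fibroblast-like cells it was -0.24 over the class and -0.06 to 0.11 within clusters. Between Day 3 and Day 7, 7 of 41 members compared were lower (*Atf4*, *Pdia4*, *Pdia6*, *Sdf2l1*, *Spcs1*, *Ssr3* and *Xbp1*) and *Serpinh1* was higher, by 1.49 on the log2 scale. Over that step the summed level of the fibroblast markers in macrophage-like cells went from 49.5 to 424 CPM. The background was 17.5% lower and 7.10% higher. *Xbp1* had 288, 144 and 110 CPM on the 3 days, and *Pdia4* 139, 65.2 and 73.3 CPM. Between Day 7 and Day 14, 6 members were higher (*Hspa5*, *Pdia3*, *Manf*, *Herpud1*, *Ssr4* and *Sdf2l1*) and *Sec23a* was lower, against 7.98% and 12.6% of all genes. *Hspa5* went from 967 to 1459 CPM, a log2 ratio of 0.59 (0.57 to 0.62), and *Sdf2l1* from 28.1 to 70.8 CPM, a log2 ratio of 1.34 (1.19 to 1.48). In fibroblast-like cells the corresponding log2 ratios were 0.06 and 0.20. The macrophage-like clusters also changed: a cluster led by *Chil3* held 57.2% of the class at Day 3, one led by *Cd36* and *Trem2* held 36.2% at Day 7, and one led by *Ccl8* held 47.4% at Day 14. In single clusters with at least 100 cells on both days, 3 to 7 members were higher at Day 14 and 1 to 5 were lower, against 6.06% to 11.5% and 11.1% to 23.5% of all genes. By the ratio averaged over these 5 clusters, 3 of 40 were higher and none was lower, against 5.25% and 8.83%. Scaling without the collagen genes and *Gm42418* gave 3 higher and 3 lower for this step, and it lowered the median of all genes by 0.11. No share of all genes under this scaling stands beside these counts, so they are not set against a background.

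The retrieval and export genes set fibroblast-like cells apart from macrophage-like cells in every library. By the criterion of a 2-fold difference, 27 members were higher in fibroblast-like cells at Day 3, 19 at Day 7 and 14 at Day 14. The background was 24.8%, 19.1% and 19.7% of all genes compared. All 7 retrieval and export genes were among them on each day. *Kdelr2* was 11.02-, 7.63- and 5.90-fold higher, and *Lman1* 10.1-, 5.81- and 4.88-fold. *Sec24d* was 8.06-, 4.94- and 4.52-fold higher. The isomerases and chaperones were higher mainly at Day 3, when all 4 isomerases and 5 of 11 chaperones passed 2-fold. At Day 14 *P4hb* was the only isomerase and no chaperone did so.

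*Serpinh1*, *Kdelr3* and *Creb3l1* had the largest ratios between these classes. *Serpinh1* stood at 39.5, 111 and 94.0 CPM in macrophage-like cells and was 129-, 29.4- and 26.9-fold higher in fibroblast-like cells. *Kdelr3* stood at 1.16, 4.38 and 3.11 CPM and was 153-, 34.2- and 37.5-fold higher. *Creb3l1* stood at 11.99, 14.1 and 11.6 CPM and was 56.9-, 20.8- and 23.0-fold higher. All 8 fibroblast markers also had UMIs in macrophage-like cells, where their summed level was 0.569%, 3.11% and 3.59% of that in fibroblast-like cells on the 3 days. For *Serpinh1* this share was 0.773%, 3.41% and 3.72%, for *Kdelr3* 0.653%, 2.92% and 2.67%, and for *Creb3l1* 1.76%, 4.82% and 4.36%. The shares of *Serpinh1* and *Kdelr3* were close to those of the markers, so their levels in macrophage-like cells are not read as expression. The part of free RNA and of remaining doublets in these levels was not tested.

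A few members were lower in fibroblast-like cells. *Atf6*, *Ern1* and *Sec11c* were at least 2-fold lower than in macrophage-like cells on all 3 days, and *Sdf2l1* was so at Day 14. These were 3, 3 and 4 members, against 23.3%, 21.0% and 21.4% of all genes. *Sec11c*, a catalytic subunit of the signal peptidase, had 50.7, 42.9 and 50.8 CPM in fibroblast-like and 106, 133 and 183 CPM in macrophage-like cells. The other catalytic subunit gene, *Sec11a*, was 2.44-, 2.22- and 2.06-fold higher in fibroblast-like cells.

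**Figure D3:**
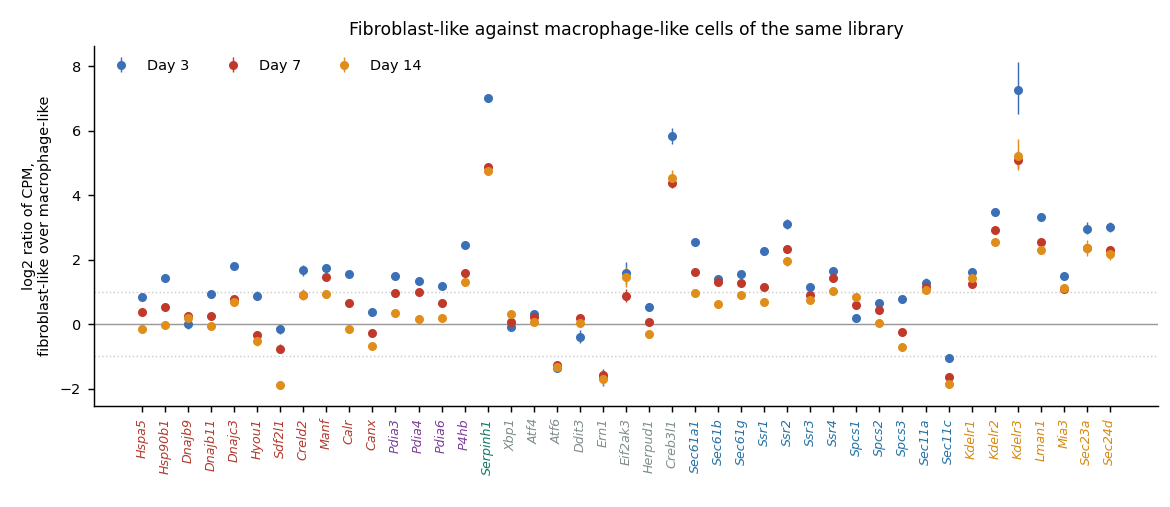
Log2 ratio of CPM in fibroblast-like over macrophage-like cells of the same library for each member, with 1 point per day, bars for the 95% counting interval and dotted lines at 2-fold. *Serpinh1*, *Kdelr3* and *Creb3l1* lie far above the others on all 3 days, and *Atf6*, *Ern1* and *Sec11c* lie below the lower line.

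Other classes held the highest level of some members. Among the 4 classes with at least 50 cells at Day 3, fibroblast-like cells were highest for 35 members, dendritic-like cells for 6 and neutrophil-like cells for 2. The 2 were *Ddit3*, at 132 CPM against 33.4 CPM in macrophage-like cells, the next class, and *Dnajb9*, at 107 CPM against 62.6 CPM. *Herpud1* was highest in dendritic-like cells on each day, at 213, 167 and 157 CPM. Fibroblast-like cells were highest for 29 members at Day 7 and for 25 at Day 14. On these days the T cell-like, endothelial-like and pericyte-like classes also had at least 50 cells. At Day 14 epithelial-like cells (720) did so too, and neutrophil-like cells (21) no longer did. The counts are therefore not compared between days. No share of all genes stands beside the counts, so they are not read as particular to the members. At Day 14 *Ern1* (65.8 CPM), *Atf6* (127 CPM) and *Sec11c* (281 CPM) were highest in T cell-like cells. *Hspa5* was highest in pericyte-like cells at that time, at 1529 CPM against 1459 CPM in macrophage-like cells.

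The fibroblast-like clusters differed among themselves in secretory gene level. At Day 3 the cycling cluster led by *Ube2c* and the cluster led by *Saa3* stood at 25576 and 24519 CPM of summed members. At Day 7 the *Saa3* cluster was highest, at 19151 CPM, and was the highest of 8 clusters for 23 of the 43 members. The cluster led by *Tnn* and *Acta2*, the latter being the actin of myofibroblasts, followed at 17984 CPM and was highest for 11 members, among them *Serpinh1* (4058 CPM) and *Kdelr3* (194 CPM). No share of all genes stands beside these counts of highest members, so they are not read as particular to the members. The clusters led by *Akr1c18* and by *Smpd3* were lowest, at 10775 and 10541 CPM. At Day 14 the range was narrower. It ran from 13162 CPM in the cluster led by *Col18a1* and *Crabp2* to 11382 CPM in that led by *Smpd3*, with 1 exception, a cluster led by *Prlr* at 8598 CPM.

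The cluster led by *Prlr* differed from the other fibroblast-like cells in its secretory genes. Its leading genes also included *Wif1*, *Bmp4* and *Lef1*. The paper uses *Bmp4* as the marker of mesenchymal cells, which it lists apart from fibroblasts. Whether the cells of this cluster are fibroblasts was not tested. The cluster held 724 cells at Day 14, its median cell had 2378.5 UMIs, and collagen genes took 1.22% of its UMIs. The summed level of the 8 fibroblast markers in it was 2022 CPM against 16639 CPM in the other fibroblast-like cells, although *Pdgfra* was at 253 CPM against 159 CPM. Among the other classes of at least 50 cells at Day 14, that sum was highest in endothelial-like cells, at 1913 CPM. In the cluster led by *Prlr*, *Creb3l1* was at 41.0 CPM against 272 CPM in the other fibroblast-like cells. *Kdelr3* was at 25.3 against 120 CPM and *Serpinh1* at 697 against 2580 CPM. *Dnajb9* was higher, at 230 against 86.9 CPM, as were *Atf4*, at 466 against 246 CPM, and *Ern1*, at 19.8 against 9.37 CPM. *Hspa5* was at 1667 against 1309 CPM, a log2 ratio of 0.35. Other targets of the stress programme went both ways. *Hyou1*, *Dnajb11* and *Ddit3* were higher, with log2 ratios of 0.71, 0.35 and 0.32, and *Sdf2l1*, *Manf* and *Creld2* were lower, with -0.93, -0.61 and -0.54. The 43 genes and the collagen genes were left out when cells were clustered, but other genes of the same cells were not, so the differences are a description.

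**Figure D4:**
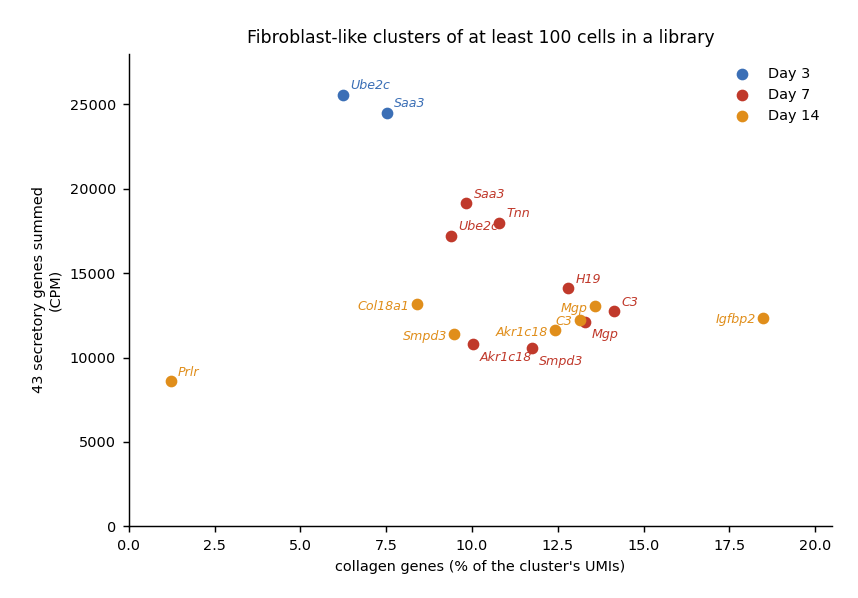
Summed level of the 43 genes (CPM) against the collagen share of UMIs (%) for each fibroblast-like cluster with at least 100 cells in a library, labelled by its leading gene and coloured by day. The 2 Day 3 clusters lie at 25576 and 24519 CPM, and the cluster led by *Prlr* lies alone at 1.22% collagen.

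Cells were next put in order of collagen share within each library, since collagen is the main cargo of wound fibroblasts. Fibroblast-like cells were cut into quintiles, 5 bins of near equal cell number, by the share of their UMIs from collagen genes, which are ranges and not cell types. At Day 3 the median collagen share was 3.68% in the lowest quintile and 10.6% in the highest. It was 7.00% and 16.9% at Day 7 and 2.06% and 20.7% at Day 14. A larger collagen share lowers the CPM of every other gene, and the median log2 ratio of the highest over the lowest quintile was -0.27, -0.33 and -0.55 over all genes. The depth was similar between quintiles at Day 3 (median 40868.5 and 42496 UMIs) but rose from 8451 to 10845 UMIs at Day 7 and from 3346 to 11826.5 UMIs at Day 14.

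The summed chaperones were lower where the collagen share was higher, in all 3 libraries, and at Day 14 by little more than the median gene. Their summed level in the lowest and highest quintiles was 9088 and 5809 CPM at Day 3, 5222 and 3155 CPM at Day 7 and 4138 and 2631 CPM at Day 14. The log2 ratios were -0.65, -0.73 and -0.65, beside the medians of -0.27, -0.33 and -0.55 over all genes. The quintiles held different clusters. At Day 3 the cluster led by *Ube2c* made up 52.5% of the lowest quintile and that led by *Saa3* 70.9% of the highest, and at Day 7 the largest were that led by *Tnn* in the lowest (30.2%) and that led by *C3* in the highest (45.0%). With quintiles made within clusters the chaperone sum was at -0.60, -0.57 and -0.60, beside medians of -0.19, -0.22 and -0.34 over all genes. In single clusters it was at -0.41 and -0.82 at Day 3 and ran from -0.75 to -0.05 over 8 clusters at Day 7. At Day 14 it ran from -0.96 to 0.14 over 7 clusters, where the cluster led by *Prlr* alone was above 0. At Day 7 it was above the cluster's own median of all genes in that led by *Saa3* (-0.19 beside -0.28). It was level with it in that led by *Akr1c18* (-0.05 beside -0.04). In the remaining clusters but that led by *Prlr* it was below, by little in that led by *Col18a1* at Day 14 (-0.30 beside -0.24). *Hspa5* went from 2082 to 1113 CPM at Day 3, from 1493 to 1046 CPM at Day 7 and from 1609 to 918 CPM at Day 14. *Calr* went from 1967 to 1300 CPM, from 901 to 470 CPM and from 475 to 286 CPM. Over all members, 11 of 42 were lower by at least 1.5-fold at Day 3 (8 of them chaperones) and none was higher, against 27.6% and 10.6% of all genes, so the count of lower members was near the background. With CPM taken over UMIs outside collagen genes, 8 members were lower at Day 3 and 2 were higher, against 21.8% and 13.2%, and with quintiles made within clusters 9 were lower, against 19.2%. At Day 7 it was 15 of 43 and none, against 24.3% and 5.26%. At Day 7 the first of these settings gave 9 lower members, against 13.0% of all genes, and the second gave 9, against 9.02%.

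The collagen chaperone and the export genes had the opposite order at Day 14. There 12 members were higher in the highest quintile and 11 were lower, against 5.70% and 47.3% of all genes. The 12 were *Creb3l1*, *Serpinh1*, 6 of the 7 retrieval and export genes (all but *Kdelr1*), *Sec61b*, *Sec61g*, *Ssr1* and *Ssr4*. *Creb3l1* was at 106, 189, 232, 274 and 411 CPM from the lowest to the highest quintile, a log2 ratio of 1.96 (1.85 to 2.07). *Serpinh1* was at 1501, 2379, 2572, 2608 and 2914 CPM, a ratio of 0.96 (0.93 to 0.99), and *Kdelr3* was at 65.4, 103, 120, 126 and 136 CPM, a ratio of 1.06 (0.91 to 1.21). At Day 3 *Creb3l1* was at 590 CPM in the lowest and 490 CPM in the highest quintile, and at Day 7 at 301 and 323 CPM. *Serpinh1* was at 4102 and 5684 CPM at Day 3 and at 3397 and 3110 CPM at Day 7.

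The Day 14 counts depended on the cluster led by *Prlr*, which held 48.8% of the cells in the lowest quintile. Without it, 3 members were higher (*Creb3l1*, *Kdelr3* and *Ssr1*) and 13 were lower, against 3.38% and 35.3% of all genes. *Creb3l1* kept a log2 ratio of 1.48, from 152 to 424 CPM, *Kdelr3* was at 0.61, and *Serpinh1*, at 0.52, was below 1.5-fold. With quintiles made within each cluster, *Creb3l1* alone was higher and 11 members were lower, against 2.20% and 19.8% of all genes. With CPM taken over UMIs outside collagen genes, a scaling that moves all genes alike, 19 members were higher and 2 lower at Day 14, against 10.6% and 26.5%. The chaperones as a sum were at -0.74 without the cluster. Other measures moved with the quintiles at Day 14. From the lowest to the highest quintile the summed pericyte markers went from 116 to 393 CPM (median over cells 0 and 222 CPM), the summed epithelial markers from 222 to 88.0 CPM, and *Gm42418* from 75348 to 49807 CPM. At Day 3 *Gm42418* went from 56104 to 22619 CPM, a log2 ratio of -1.31. Their part in the results was not tested.

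**Figure D5:**
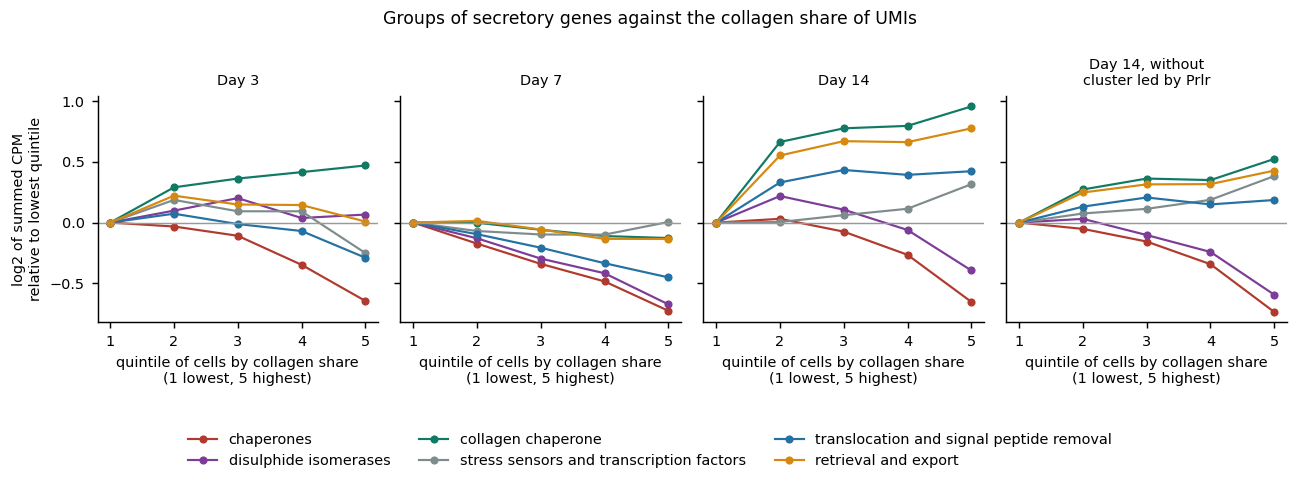
Log2 of the summed CPM of each role relative to the lowest quintile (y axis) against the quintile of fibroblast-like cells by collagen share (x axis, 1 lowest to 5 highest), by day, with a last panel for Day 14 without the cluster led by *Prlr*. The chaperone line ends at -0.65, -0.73 and -0.65 on the 3 days, while *Serpinh1* ends at 0.96 at Day 14 and at 0.52 without that cluster.

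Over single cells the Spearman correlation between member share and collagen share was -0.18 over 399 cells at Day 3, -0.19 over 5948 cells at Day 7 and 0.18 over 7370 cells at Day 14. With collagen UMIs left out of the denominator it was -0.07, -0.07 and 0.42. The cells of a library share their preparation, and at Day 14 the collagen share itself had a correlation of 0.50 with the depth of the cell. The Day 14 cells include the cluster led by *Prlr*, low in both shares, and the correlation was not repeated without it. Between the highest and lowest quintiles at Day 14 the summed members had a log2 ratio of 0.16. That ratio was -0.03 without the cluster and -0.06 with quintiles made within clusters.

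Other genes of the pathway were also counted in fibroblast-like cells. Of 67 further genes of glycan transfer, signal recognition, folding, degradation, stress response and vesicle traffic, 63 were compared between Day 7 and Day 3, of which 23 were lower and 5 higher, against 24.0% and 9.66% of all genes. *Rpn1*, of the oligosaccharyl transferase, had 666, 278 and 170 CPM on the 3 days. *Fkbp10*, a prolyl isomerase that acts on procollagen with HSP47, had 520, 196 and 98.1 CPM. *Prkcsh*, the regulatory subunit of glucosidase II, had 215, 74.3 and 45.1 CPM. The 5 higher genes were *Atf3*, *Ppp1r15a*, *Krtcap2*, *Os9* and *Ergic3*. *Atf3*, a stress-induced transcription factor, had 115, 410 and 751 CPM, and *Ppp1r15a*, which ends the translation block set by the product of *Eif2ak3*, had 91.7, 138 and 263 CPM. The immediate early genes *Jun* and *Fos*, which respond to tissue dissociation, had 581, 1298 and 1553 CPM and 1596, 1648 and 2018 CPM in the same cells, and the part of dissociation in these values was not tested. Between Day 14 and Day 7, 13 of 62 pathway genes were lower and 3 were higher, against 12.4% and 6.88% of all genes. In the collagen quintiles at Day 14, 8 of 62 were higher and 3 lower, against 5.70% and 47.3%, with *Fkbp10* at a log2 ratio of 1.46. Without the cluster led by *Prlr*, 1 was higher and 2 were lower, against 3.38% and 35.3%.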

How the data were processed

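The authors dissociated wound tissue with a whole skin kit, lysed red cells, removed debris and prepared 1 Chromium 3′ library per day. Per the submitters' notes, reads were processed with Cell Ranger 6.0.0 on mm10. The deposited values are raw UMI counts per gene and barcode, with no normalization.

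Cells were kept at 500 UMIs, 200 genes and at most 10% mitochondrial UMIs. Doublets were called by simulated neighbours (92, 1978 and 962 barcodes on the 3 days) and removed. Counts were log-normalised, and 2000 variable genes, 30 components and 15 neighbours were used for Leiden clustering (leidenalg 0.10.2) of the 3 libraries together, without the alignment between libraries that the study used. The variable genes left out 256 genes, among them the members, the further pathway genes and the collagen genes. Clusters were named from fixed markers. The scoring rule for names was set after the clusters were seen. Low-UMI clusters with haemoglobin genes stayed unnamed. Depth is as given in the report.

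For each class of a library, a gene's UMIs were added up and divided by all UMIs of the class (CPM), with exact Poisson intervals for levels and exact conditional binomial intervals for ratios, at 95%. In 3′ counts levels are not compared between genes. With 1 library per day no test was made. The background is the share of all genes past the same fold. On simulated data with 200 genes changed 2-fold, 100% were recovered in each of the 4 comparisons of days and no unchanged gene was called, a check of the counting alone, since the simulation held no variation between libraries. Analyses used Python 3.11.15, numpy 2.4.6, scipy 1.17.1 and pandas 2.3.3. All members are named. Further genes come from the pathway and marker lists, except *Jun*, *Fos*, *Gm42418*, *Col1a1* and the leading genes of clusters, which were named after their values were seen. The members, lists and roles were chosen with earlier results of these data known. Promoter windows were available for 33 members.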

Additional observations from a re-analysis of the deposited data

Results flagged for a closer look

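The UMIs of *Serpinh1* had opposite directions between Day 7 and Day 3 in the 2 large classes, with 1 library per day in each, but its level in macrophage-like cells is not read as expression, since it was 0.773% and 3.41% of that in fibroblast-like cells on these days, close to the 0.569% and 3.11% of the fibroblast markers. Its log2 ratio was -0.651 in fibroblast-like cells (5113 to 3256 CPM) and 1.489 in macrophage-like cells (39.5 to 111 CPM), and the difference between them was not tested. Over the same step the summed fibroblast markers in macrophage-like cells went from 49.5 to 424 CPM and collagen genes from 0.0441% to 0.385% of their UMIs.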

How the results depend on the processing

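Every comparison rests on 1 library per day, so the days cannot be told apart from the libraries, and depth limits the low members and shallow classes. No paired analysis was possible because each day has 1 library. Of the alternatives to the values over several genes, 67 moved a value, 1 reversed it and 254 did not move it. For single members 271 alternatives moved the value, 5864 did not and 2 reversed it, *Pdia4* within clusters (0.121, Day 14 over Day 7) and *Creld2* in the Day 3 collagen quintiles with cells thinned to 2000 UMIs (0.188), which left out 8, 111 and 350 shallower cells. The cause was not tested.

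The log2 ratio of the summed members in fibroblast-like cells, Day 7 over Day 3, was -0.738 with a mitochondrial limit of 5%, -0.775 with doublets kept, -0.736 with each library clustered alone, -0.768 with classes from each cell's own markers, -0.564 without collagen genes and *Gm42418* in the scaling, -0.537 with scaling by the median of ratios, -0.800 as a mean over cells and -0.463 within clusters, where ratios are averaged over the clusters of both days. For Day 14 over Day 7 the same settings gave -0.235, -0.226, -0.232, -0.236, -0.276, -0.110, -0.248 and, reversed, 0.066. A mitochondrial limit of 20% gave -0.233, clustering resolutions of 0.5 and 2 gave -0.237 and -0.236, and leaving out the cluster led by *Prlr*, chosen after seeing the data, gave -0.229.

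In fibroblast-like cells the 1 member higher at Day 7 (*Ddit3*) became 0 with a limit of 50 CPM, with a 2-fold limit and within clusters, and the 23 lower became 13 with 2-fold and 15 within clusters, against 8.96% and 15% of all genes. At Day 14, 0 higher became 2 with the median of ratios, 1 as a mean over cells and 5 within clusters, and 4 lower became 1 with 2-fold and within clusters, against 3.43% and 4%. In macrophage-like cells the 1 higher at Day 7 became 2 with libraries clustered alone or no limit on CPM and 3 with either scaling, and the 7 lower became 2 with 2-fold, against 5.14%. At Day 14 the 6 higher became 3 without collagen genes and *Gm42418*. They became 3 within clusters (added after seeing the data), against 5.25% of all genes, and 1 with 2-fold, against 2.49%. Counts in this paragraph without a share of all genes beside them are not set against a background. The 1 lower became 2 with at least 1000 UMIs and 500 genes or with classes from own markers, 3 without collagen genes and *Gm42418*, and 0 at resolution 0.5, with libraries clustered alone, low-UMI clusters added, the median of ratios, a mean over cells, 50 CPM, 2-fold or within clusters.

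Between classes at Day 14, the 14 higher became 23 at 1.5-fold and the 4 lower became 2 at 50 CPM. No share of all genes stands beside these counts, so they are not set against a background. In the collagen quintiles the 0 higher at Day 3 became 4 with deciles, 2 without collagen UMIs and 3 after thinning, and the 11 lower became 4 with 2-fold. At Day 7 the 15 lower became 9 with tertiles, without collagen UMIs or within clusters, and 3 with 2-fold. At Day 14 the 12 higher became 2 with tertiles or 2-fold, 19 without collagen UMIs, 1 within clusters and 3 without the cluster led by *Prlr*. The 11 lower became 6 with doublets kept, 7 with tertiles, 2 without collagen UMIs and 1 with 2-fold. The counts with deciles, tertiles, thinning, 2-fold or doublets kept have no share of all genes beside them and are not set against a background. For the other settings the shares are given with the quintiles above. In some alternatives the clusters led by *Igfbp2* and *Mmp12* met no class and stayed unnamed.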
